A study of Mus musculus with 7 samples.

Results

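Glioma cells of mice labelled Ptprd-/-p16-/- (called null here, 3 arrays) were compared with glioma cells of mice with wild-type Ptprd (Ptprd+/+p16-/-, 2 arrays). These are 5 of the 7 arrays of the study, and the other 2 came from heterozygous mice (Ptprd+/-p16-/-). The comparison was described across the 9243 genes that passed a filter on dim probe sets, of the 12393 genes with a probe set that names them alone, and the differences of all 20380 such probe sets were read beside them. The mice of all groups, the wild-type controls included, lacked p16, were of a mixed C57/BL6 and FVB/N background and expressed tv-A, the receptor of an avian virus, from the Nestin promoter. On postnatal day 1 to 3 they received a cerebral injection of RCAS PDGFB GFP, a retroviral vector of birds that delivers the platelet-derived growth factor PDGFB, together with a fluorescent tag, to cells with that receptor. Symptomatic tumours, or tumours at 12 weeks at the latest, were dissected, and their living (DAPI-) and fluorescent cells were sorted into Trizol. The groups are biological replicates per the labels, which give neither the number of mice behind an array nor their sex, so a p-value here reflects array-to-array spread, which may in part be technical. The Ptprd mice came from an earlier study, and the part of the gene that was changed in them is not given in the sources used here.

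Ptprd is a receptor-type protein tyrosine phosphatase of the LAR family, with extracellular domains that bind synaptic adhesion partners and heparan sulfate proteoglycans and intracellular domains that remove phosphate from tyrosine. It is known as a tumour suppressor candidate that lies on the same chromosome arm as the Cdkn2a locus in human glioma, and STAT3, a transcription factor activated by tyrosine phosphorylation, is a reported substrate. Gliomas driven by platelet-derived growth factor B resemble oligodendrocyte progenitors and the proneural class of human glioma.

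All values are log2 expression levels after RMA, a procedure that sets the arrays to one distribution, so a shift of all genes together cannot be seen. Array medians lay between 6.62 and 6.71 on all 7 arrays. The 3' minus 5' difference of the control probe sets for Gapdh and Actb, a sign of RNA quality, lay between 0.61 and 0.91 and overlapped between null and wild type. The tumour identity fitted the label: Pdgfra, Olig1, Olig2 and Sox10 lay at or above the 97th percentile of every one of the 5 arrays. Nes, whose promoter drove the receptor, lay between the 44.3 and 52.2 percentiles. Markers of other cells were not uniformly dim. Snap25 of neurons lay between the 88.8 and 90.4 percentiles and Mbp of myelinating oligodendrocytes between 98.5 and 99.6. Csf1r of macrophages lay between 58.2 and 63.6 and Mog of myelinating oligodendrocytes between 51.6 and 70.5. Aqp4 of astrocytes lay between 54.6 and 77.4 and Tyrobp of myeloid cells between 32.1 and 48.8. On the other hand, Gfap (30.7 to 35.2) and Aldh1l1 (24.6 to 28.9) of astrocytes were dim. So were Ptprc (22 to 26.5) and Cd68 (22.8 to 28.3) of the macrophage markers. Itgam and Aif1 of macrophages, Pecam1 and Cdh5 of endothelium, Syt1 and Rbfox3 of neurons and Cd79a of B cells were too dim to be tested. The Ttr level, known from choroid plexus, lay at the 99.2 percentile or above on all 5 arrays. Xist, which coats the silenced X chromosome, stood at 5.40 in wild-type replicate 1 and 5.14 in null replicate 2, and it was high in wild-type replicate 2 (12.90), null replicate 1 (12.73) and null replicate 3 (12.60). The mean of 3 Y-linked genes was high in null replicates 1 (7.14) and 2 (8.40) and in wild-type replicate 1 (8.55). Null replicate 1 therefore carried both. The Y-linked mean was low in null replicate 3 (3.36) and wild-type replicate 2 (3.04).

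The targeted gene was lower in the null arrays, but its RNA was still well detected. The brightest of the 3 Ptprd probe sets stood at 10.86 and 10.89 in the wild-type arrays and at 9.61, 8.95 and 9.93 in the null arrays. All 3 null arrays lay below both wild-type arrays. The difference was -1.37 ± 0.26 (SE), a 2.59-fold lower level, with a 95% interval of -1.98 to -0.77. The other probe sets gave -1.23 and -1.30, again without overlap. The difference had the smallest two-sided exact permutation p that 2 against 3 arrays allow, 0.1. In limma's fit across all genes the unadjusted p was 0.00106 and the adjusted p 0.882. The heterozygous arrays stood at 9.42 and 9.57, within the range of the null arrays, and null minus heterozygous was 0.00. The arrays therefore separated wild type from both other genotypes at Ptprd and did not separate null from heterozygous. Where the probe sets lie relative to the changed part of the gene is not given, so the signal that remained is not a measure of functional Ptprd.

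**Figure D1:**
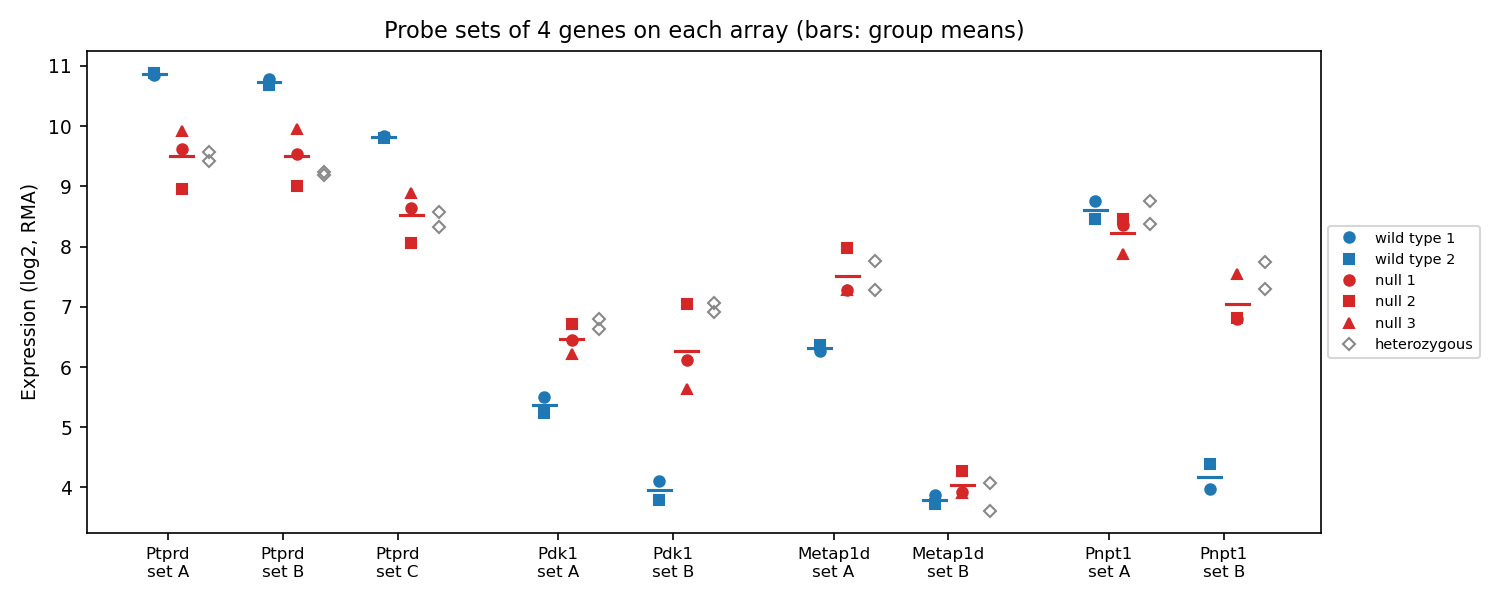
Log2 level (vertical axis) of every single-gene probe set of Ptprd, Pdk1, Metap1d and Pnpt1 on each wild-type (blue), null (red) and heterozygous (grey) array, with bars at the wild-type and null means; set A represents the gene in the fit. All 3 Ptprd probe sets were lower in the null arrays, and set B of Pnpt1 went from 3.97 and 4.39 in wild type to 6.80 or more in null.

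Neither Ptprd nor any other gene passed the test across all genes between null and wild-type tumour cells. With limma, 0 of 9243 genes passed an adjusted p of 0.05 (background 0%), and the smallest adjusted p was 0.88. An unadjusted p under 0.05 was reached by 475 genes (5.14%), 254 of them higher in null and 221 lower, where uniform p-values would give 462. Under 0.01 there were 74 genes, where uniform p-values would give 92.4, and under 0.001 there were 4, where they would give 9.24. Other settings of the same test called 0 or 1 gene, and the 3 single calls are described below with Pnpt1, Zfp2 and S100a8. For comparison, the same fit called 938 genes (10.1%) between heterozygous and wild type, which share the wild-type arrays with this comparison, and 828 genes (8.96%) between null and heterozygous.

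The size of the differences was bounded by the data. The middle 90% of genes differed by -0.30 to 0.30, the median difference was 0.00, and the median SE was 0.13. The 95% interval lay within 2-fold in both directions for 8750 genes (94.7%) and within 0.5 on the log2 scale for 63.4%. A difference over 2-fold was seen for 24 genes (0.26%), and in 8 of these all null arrays lay on one side of both wild-type arrays. Of all genes, 988 (10.7%) were higher in every null array than in both wild-type arrays and 1019 (11%) were lower in every null array. That split was 49.2% higher as deposited and 65.9% higher (1457 genes against 753) after each array was centred on its median, which moved all differences by 0.03. The direction of small differences thus depended on the centring. Over all 20380 single-gene probe sets, without a filter, 0 passed the threshold in limma (1258 with an unadjusted p under 0.05, uniform p-values would give 1019), 11.2% were higher without overlap and 10.4% were lower.

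**Figure D2:**
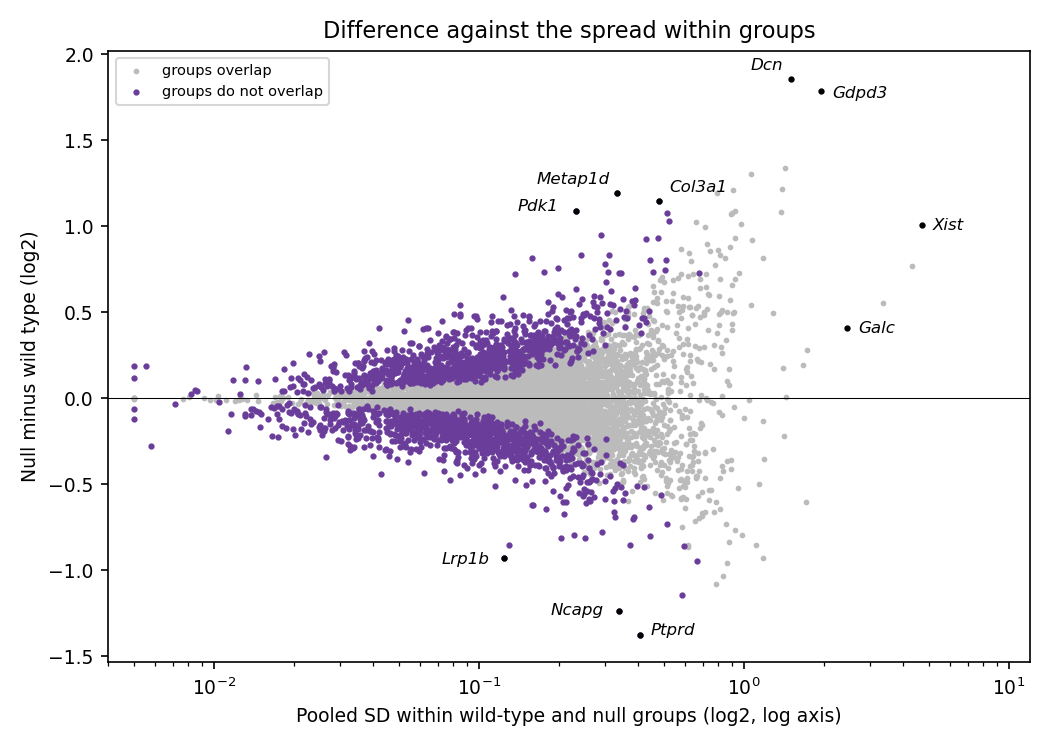
Null minus wild type (log2, vertical axis) against the pooled SD within the wild-type and null groups (log2, log axis) for the 9243 genes tested, purple where the groups do not overlap; SDs under 0.005 are drawn at 0.005. Ptprd, Ncapg, Pdk1, Metap1d and Col3a1 lie outside the cloud at a moderate spread, while Dcn, Gdpd3, Xist and Galc owe their place at the right to differences between arrays of one group.

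The distances between arrays of one group and of different groups covered a like range. Wild-type replicates 1 and 2 differed over 2-fold in 83 genes. Among the null arrays the counts were 93 genes between replicates 1 and 3, 169 between 1 and 2, and 179 between 2 and 3. Between the groups they ran from 79 genes (wild-type replicate 2 and null replicate 3) to 205 (wild-type replicate 1 and null replicate 1). The closest pair of all was wild-type replicate 1 with null replicate 2, with a correlation across genes of 0.991, and both share low Xist and high Y-linked levels. With the Xist minus Y-linked level of each array as a covariate the fit called 0 genes and gave 559 with an unadjusted p under 0.05. When each wild-type array was paired with a different null array, so that no array was shared, the correlation of the 2 sets of differences across the 9243 genes ran from -0.32 to 0.17 over the 6 possible pairings. The genes are not independent replicates, and these correlations are given as a description.

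**Figure D3:**
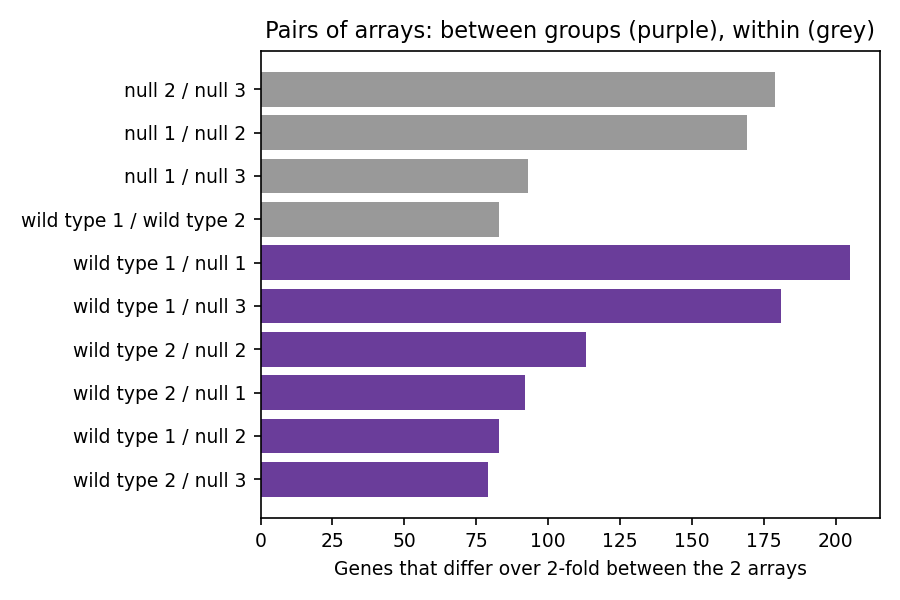
Number of genes that differed over 2-fold between the 2 arrays of a pair (horizontal axis), for pairs between groups (purple) and within a group (grey). The counts between groups, 79 to 205, span those within groups, 83 to 179.

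The genes below were chosen by the size of their difference and the absence of overlap, or by their p, so that their values are a description of the extremes of 9243 genes and not a list of called changes. Among genes without overlap and with an unadjusted p under 0.05, the 12 largest positive differences belonged to dim genes, with wild-type means of 4.62 to 6.32 (median 5.09). The 30th percentile of the arrays lay between 4.82 and 4.95. The 12 largest negative differences had wild-type means of 6.07 to 11.32 (median 7.16).

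Metap1d and Pdk1, the genes of the largest positive difference without overlap and of the smallest p, both encode mitochondrial enzymes. Metap1d, a mitochondrial methionine aminopeptidase, stood at 6.27 and 6.36 in wild type and at 7.28, 7.97 and 7.27 in null. Every null array lay above both wild-type arrays, and the difference was 1.19 ± 0.24 (SE). Pdk1, a kinase that inhibits pyruvate dehydrogenase, stood at 5.50 and 5.24 in wild type and at 6.45, 6.72 and 6.21 in null, again without overlap. Its difference was 1.09 ± 0.17 (SE), the smallest p of the comparison (unadjusted 0.000328, limma adjusted p 0.882). The other, dimmer probe set of Pdk1 gave 2.32, from 4.11 and 3.79 in wild type to 6.11, 7.05 and 5.64 in null. The other probe set of Metap1d gave 0.24.

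Both genes lie on chromosome 2, with 3 protein-coding genes between them in the order of RefSeq's GRCm38.p6. The one of those 3 that was tested, Itga6, an integrin chain, differed by -0.12 with overlap, and Hat1, a histone acetyltransferase on the outer side of Metap1d, by 0.08 with overlap. Among the 12 tested genes on each side of Pdk1, the next largest difference in size was that of Wipf1. It was lower without overlap, by -0.39 and by -0.43 in its other probe set. Several of the remaining genes also did not overlap, most of them lower. The heterozygous arrays were high for Pdk1 and Metap1d as well, at 6.63 and 6.80 for Pdk1 and 7.28 and 7.76 for Metap1d. Heterozygous minus wild type was 1.34 for Pdk1 (limma adjusted p 0.0113) and 1.20 for Metap1d (limma adjusted p 0.038), with the same wild-type arrays in both comparisons. For these 2 genes all 5 arrays with a changed Ptprd allele thus lay above the 2 wild-type arrays.

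Pnpt1, the mitochondrial polynucleotide phosphorylase, showed a similar order in only one of its probe sets. That probe set stood at 3.97 and 4.39 in wild type, at 6.80, 6.82 and 7.54 in null and at 7.30 and 7.74 in the heterozygous arrays. The null minus wild-type difference was 2.88 ± 0.27 (SE), with the smallest p of all probe sets, an unadjusted 1.2e-05. It did not pass the adjustment in limma's fit over all single-gene probe sets (adjusted p 0.245) or over those above the filter (adjusted p 0.162). It lay below the filter's level on both wild-type arrays and passed the filter only through the null and heterozygous arrays. The brighter probe set, which represents the gene, gave -0.38 ± 0.21 (SE), all null arrays being just below both wild-type arrays at 8.36, 8.46 and 7.88 against 8.76 and 8.47. Where probe sets of one gene were averaged in place of taking the brightest, Pnpt1 was the one gene called by limma, at 1.25 (adjusted p 0.0163). Its brighter probe set had adjusted p-values of 0.613 to 1.00 under the other alternatives. Which of the probe sets reflects the transcript's level was not tested.

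Anxa1, Casp1, Tgfbi and Postn were among the 12 largest positive differences without overlap. Anxa1, an annexin that binds phospholipid and acts in the resolution of inflammation, stood at 5.27 and 4.93 in wild type and at 5.95, 5.81 and 5.99 in null, a difference of 0.81 ± 0.13 (SE). Anxa2, a relative that organises membranes and actin, differed by 0.59 ± 0.11 (SE). For both, the 3 null arrays lay close together and above wild type, and the heterozygous arrays stood higher still, at 7.04 and 7.16 for Anxa1 and 8.56 and 8.56 for Anxa2. Casp1, the inflammasome protease, stood at 4.41 and 4.99 in wild type and at 5.76, 6.34 and 5.23 in null (1.08 ± 0.37, SE). Tgfbi, a matrix protein induced by transforming growth factor beta, differed by 0.83, and its other 3 probe sets by 0.50, 1.31 and 1.82 in the same direction. Postn, the matrix protein periostin, stood at 5.01 and 4.23 in wild type and at 5.34, 5.38 and 6.24 in null (1.03 ± 0.33, SE).

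Col3a1, Pcolce and Dcn were uneven among the null arrays. Col3a1, a chain of type III collagen, stood at 4.87 and 4.45 in wild type and at 6.01, 5.19 and 6.23 in null (1.15 ± 0.45, SE), while its dimmer probe set gave 0.12 with overlap. Pcolce, which enhances the processing of procollagens, stood at 5.28 and 4.85 against 6.30, 5.38 and 6.32. In both genes null replicate 2 lay lowest of the null arrays and nearest to wild type, and the dimmer probe set of Pcolce gave 0.39 with overlap. Dcn, the proteoglycan decorin, had the largest difference of all genes, 1.86 ± 0.98 (SE), but rested on null replicates 1 (8.36) and 3 (8.53), while null replicate 2 (5.24) lay below both wild-type arrays (5.59 and 5.45). The chemokine gene Cxcl12 (null 6.46, 4.97 and 7.56, wild type 5.09 and 4.97) and the gap junction gene Gjb2 (null 5.20, 3.88 and 6.08, wild type 3.69 and 4.0) had a like order. The mean level of 19 endothelial and pericyte genes lay between 5.41 and 5.60 in wild type and between 5.25 and 5.72 in null, lowest in null replicate 2. The part of such cells in these results was not tested, and in sorted bulk cells more cells of a type and more RNA per cell cannot be told apart.

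Il15, a cytokine that maintains natural killer and T cells, stood at 5.12 and 5.65 in wild type and at 6.33, 6.25 and 6.07 in null (0.83 ± 0.20, SE). The heterozygous arrays lay on the other side of wild type, at 4.35 and 4.84, and null minus heterozygous was 1.62 (limma adjusted p 0.0107). Afm, a vitamin E binding protein of the albumin family, differed by 0.72 ± 0.13 (SE) and Olfml3, a secreted matrix protein, by 0.76 ± 0.15 (SE), both without overlap. Afm lay below the filter's level on both wild-type arrays and was tested through the null and heterozygous arrays. Its dimmer probe set gave 0.19. Aldh1a7, an aldehyde dehydrogenase, stood highest in null replicate 2 (6.57), with 5.62 and 5.44 in the other null arrays and 5.19 and 4.95 in wild type. Foxj1, the transcription factor of motile cilia, stood at 4.52 and 4.94 in wild type and at 6.07, 5.10 and 5.42 in null.

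**Figure D4:**
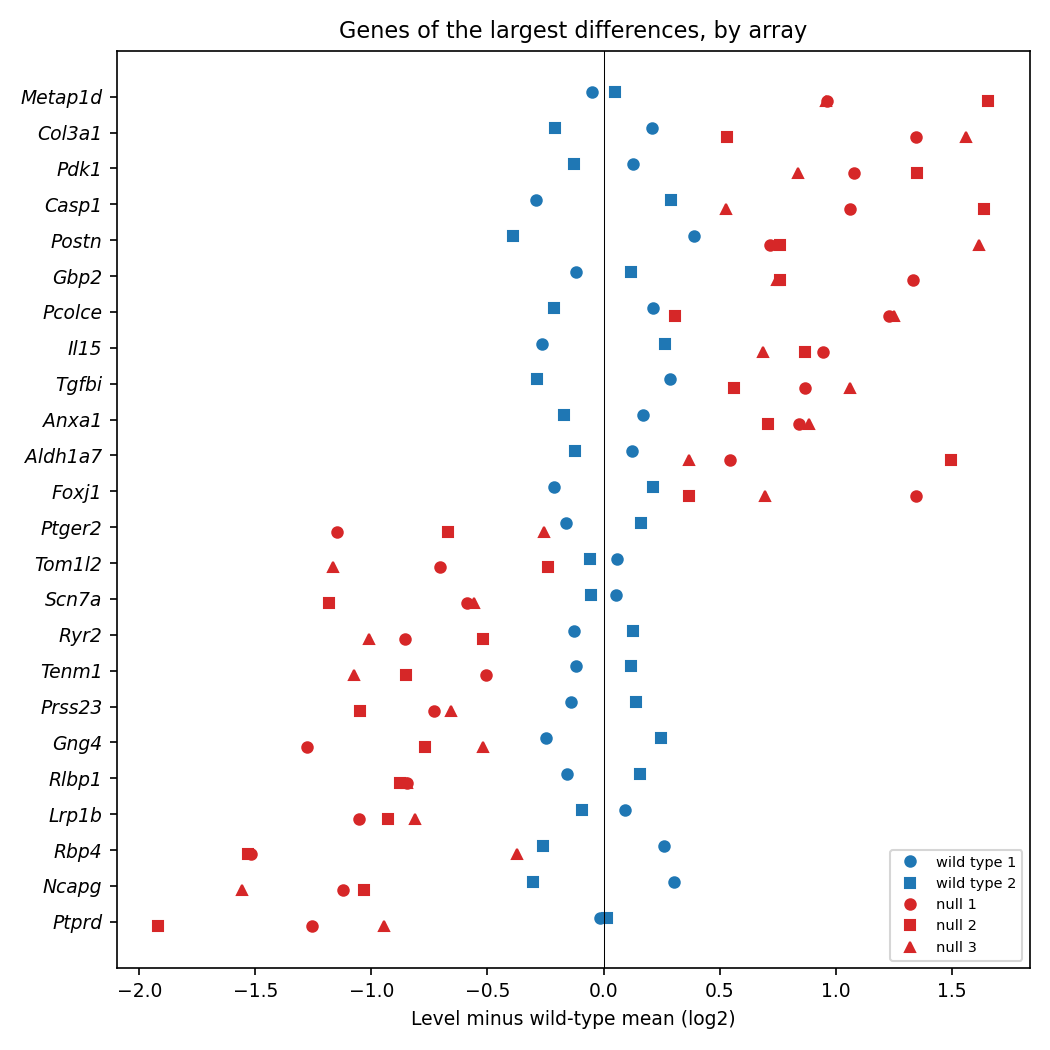
Level of each of the 24 genes with the largest differences on each array, minus the wild-type mean (log2, horizontal axis), blue for wild type and red for null. Null arrays of one gene are often farther apart than the null and wild-type arrays nearest to each other, as for Casp1, Col3a1, Rbp4 and Tom1l2.

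Besides Ptprd, 11 genes had the largest negative differences without overlap. Lrp1b, a large receptor of the LDL receptor family, stood at 6.62 and 6.44 in wild type and at 5.48, 5.61 and 5.72 in null (-0.93 ± 0.15, SE). Rlbp1, a retinaldehyde-binding protein of glial progenitors, stood at 11.16 and 11.48 in wild type and at 10.47, 10.44 and 10.47 in null (-0.86 ± 0.17, SE). Neither gene overlapped between the groups, and the null arrays of Rlbp1 were nearly equal. Rbp4, which carries retinol, stood at 7.44 and 6.92 in wild type, while null replicates 1 and 2 stood at 5.66 and 5.64 and null replicate 3, at 6.80, lay just below wild type. The calcium release channel gene Ryr2 differed by -0.79 ± 0.17 (SE), with the opposite sign (0.20) in another probe set. Scn7a, of the sodium channel family, differed by -0.78 ± 0.19 (SE), and Prss23, a serine protease, by -0.81 ± 0.18 (SE) and -0.87 in its other probe set.

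Ncapg, a subunit of the condensin complex that compacts mitotic chromosomes, stood at 7.44 and 6.84 in wild type and at 6.02, 6.11 and 5.58 in null (-1.24 ± 0.42, SE). All null arrays lay below wild type, whereas its other probe set gave -0.65 with overlap. Gng4, a G protein gamma subunit, differed by -0.85 in one probe set and by 0.12 in the other. Tenm1, a teneurin that acts in synaptic adhesion, differed by -0.81 ± 0.29 (SE), Tom1l2, an endosomal sorting protein, by -0.70 (-0.01 and 0.03 in dimmer probe sets), and Ptger2, a receptor of prostaglandin E2, by -0.69. For Lrp1b, Rlbp1, Ryr2, Scn7a, Prss23, Tenm1 and Ptger2 the heterozygous means were lower than the null means, in a comparison that shares the wild-type arrays. For Rbp4 and Tom1l2 the heterozygous means lay between null and wild type. Ncapg and Gng4 went the other way, with heterozygous means above wild type by 0.92 and 1.11. Their null minus heterozygous differences were -2.16 and -1.96.

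The gene lists were read by counts alone. In each of the 33 lists 0 members passed the threshold in either direction, with limma. Members on one side without overlap are given against the 10.7% higher and 11% lower of all genes, and medians against the median of 0.00 over all genes. Of the 10 tested members of the LAR family and its partners, 0 were higher and 4 lower without overlap: Ptprd itself, the heparan sulfate proteoglycan Sdc3 (-0.24), the synaptic partner Slitrk1 (-0.25) and the neurotrophin receptor Ntrk3 (-0.17). For Sdc3 the dimmer probe sets gave -0.07 and 0.15 with overlap. In their brightest probe sets the 2 paralogues of Ptprd overlapped, Ptprf at -0.05 (95% interval -0.32 to 0.22) and Ptprs at 0.01 (-0.38 to 0.40). Both intervals lie within 2-fold. A dimmer probe set of Ptprf was lower in every null array, at 6.54, 6.61 and 6.80 against 6.84 and 6.97 (-0.25), and another gave -0.12 with overlap. The dimmer probe sets of Ptprs gave 0.19 and -0.26, both with overlap. Of 14 other receptor tyrosine phosphatases, 1 was higher and 3 were lower without overlap, with a median of -0.12.

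Genes of the progenitor state that marks these tumours had mostly small negative differences, none past the test. Of 16 tested oligodendrocyte progenitor genes, 0 were higher and 6 were lower without overlap, and the median difference was -0.17. Besides Rlbp1 these included Pcdh15, a protocadherin (wild type 7.97 and 7.75, null 7.52, 7.54 and 7.49), Cspg4, the NG2 proteoglycan (-0.28), and Pdgfra, the receptor of the driving growth factor (13.75 and 13.72 against 13.52, 13.65 and 13.57, a difference of -0.16). The mean level of the whole list was 11.30 and 11.37 in wild type and 11.17, 11.10 and 11.15 in null, without overlap and with a gap well under 2-fold. Of 21 proneural glioma genes, 0 were higher and 3 lower without overlap, Marcks (-0.22), Gpm6a (-0.23) and Pdgfra, and all 21 had a 95% interval within 2-fold. The median of that list was -0.10. Of 17 neural stem cell genes, 2 were higher and 3 lower without overlap, among them Egfr, the epidermal growth factor receptor (0.38), and Pax6, a transcription factor of radial glia (-0.60). Dimmer probe sets of Egfr gave -0.20 to 0.23 with overlap, and those of Pax6 gave -0.32 to 0.05. The median of the progenitor list kept its sign under all 18 alternatives, from -0.21 to -0.12.

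Mesenchymal glioma genes showed the opposite sign. Of 22 tested, 7 were higher and 0 lower without overlap, and the median was 0.17, between 0.11 and 0.27 under 18 alternatives. The 7 included Anxa1, Anxa2, Casp1, Tgfbi and Col3a1, whose values are given above, and Timp1, an inhibitor of matrix proteases (0.24 ± 0.18, SE). Timp1 stood at 4.31 and 4.22 in wild type, at 4.47, 4.60 and 4.44 in null, and at 8.51 and 7.88 in the heterozygous arrays. Timp1 passed the filter on dim genes only through the heterozygous arrays, lying below the filter's level on every wild-type and null array. Null minus heterozygous was -3.69 (limma adjusted p 0.000739). Cd44, the hyaluronan receptor, stood at 6.21 and 3.79 in wild type and at 4.60, 6.45 and 3.96 in null, wholly overlapping, and null minus heterozygous was -5.07 (limma adjusted p 0.0222). Timp1 and Cd44, and Osmr and Socs3 below, were named for their heterozygous levels, after values were seen. Of 27 extracellular matrix genes, 4 were higher and 1 lower without overlap, with a median of 0.14.

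The mean level of 32 macrophage and microglia genes, 11 of which lay below the 30th percentile on all 5 arrays, was 5.21 and 4.96 in wild type and 5.12, 5.41 and 5.14 in null. Their part in the mesenchymal values was not tested. Of 24 tested members of that list, 3 were higher and 0 lower without overlap, among them Adgre1, a surface receptor of macrophages (0.32), and the median was 0.13. Tyrobp, a signalling adaptor of myeloid cells, overlapped and was highest in null replicate 2 (6.55). The median of the macrophage list turned to -0.01 when wild-type replicate 2 was left out.

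Interferon response genes had one of the largest list medians, 0.50, and 6 of 23 were higher without overlap, while 0 were lower. Gbp2, an interferon-induced GTPase, stood at 5.03 and 5.27 in wild type and at 6.48, 5.91 and 5.90 in null, and its other probe set differed by 1.17. Ifitm1, Ifitm2 and Ifitm3, which restrict viral entry, differed by 0.58, 0.41 and 0.74, Mx2, an antiviral GTPase, by 0.56, and Irf1, a transcription factor of the pathway, by 0.47. The list as a whole did not separate the groups: the median level of its members was 6.09 and 7.10 in wild type and 6.92, 6.82 and 6.70 in null, so wild-type replicate 2 stood highest and wild-type replicate 1 lowest. Under the alternatives the median difference ran from 0.01 to 0.81. Of 14 antigen presentation genes, 0 were without overlap in either direction, and the median was 0.44. H2-Aa, a class II chain, stood at 6.07 and 6.94 in wild type and at 7.38, 8.38 and 6.38 in null. The list's median was -0.04 without wild-type replicate 1.

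Of 16 chemokine genes, 4 were higher and 0 lower without overlap, among them Ccl24 (0.29) and Ccl12 (0.46), both attractants of leukocytes, and the median was 0.19. It was -0.08 under a filter at the 50th percentile, which removes most of these dim genes. Ccl12 passed the main filter only through the heterozygous arrays, lying below the filter's level on every wild-type and null array. Of 6 cytokine genes, 0 were without overlap.

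The STAT3 pathway did not lean to either side. Of 28 tested STAT3 targets, 4 were higher and 4 lower without overlap, the median was -0.01, and 7 of 18 alternatives gave the other sign. The differences of the 28 targets ran from -0.84 to 0.73. Junb, an AP-1 factor, was higher by 0.30 and Vegfa, the vascular growth factor, by 0.73, without overlap. Timp1, also among the 4 higher targets, passed the filter on dim genes only through the heterozygous arrays. Socs3, the feedback inhibitor of STAT3 signalling, stood at 9.17 and 8.72 in wild type and at 9.11, 9.17 and 8.75 in null, a difference of 0.07 with a 95% interval of -0.39 to 0.53. Null minus heterozygous was -1.62 for Socs3 (limma adjusted p 0.00942) and -3.57 for Osmr, the oncostatin M receptor (limma adjusted p 0.00893). Osmr itself overlapped between null and wild type, at 4.62, 5.06 and 4.30 against 5.66 and 4.34, and its dimmer probe set gave 0.20, also with overlap. Of 26 JAK-STAT components, 3 were higher and 3 lower without overlap. They included Pias4, an inhibitor of STAT proteins (0.40), the receptor Il6ra (0.34) and the receptor Lifr (-0.34). Dimmer probe sets differed in sign: Il6ra gave -0.08 with overlap, and Lifr gave 0.20 without overlap and -0.47 with overlap. STAT3 phosphorylation was not measured on these arrays.

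Transcripts of feedback genes downstream of the driving growth factor showed small differences, with more members lower than higher without overlap. Of 19 tested genes of the PDGF and ERK feedback list, 3 were higher and 8 lower without overlap, the median was 0.00, and 18 had an interval within 2-fold. Spry4 (0.36) and Phlda1 (0.31), both feedback genes of receptor tyrosine kinases, were on the higher side. Spred2, an inhibitor of the Ras and ERK cascade, was on the lower side (-0.24).

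Mitotic genes varied between arrays of one genotype, and null and wild type overlapped. Of 31 tested G2/M genes, 30 had a negative difference and the median was -0.45, yet 0 were without overlap and 4 had an interval within 2-fold. The proliferation marker Mki67 stood at 10.15 and 9.14 in wild type and at 8.78, 9.86 and 8.31 in null. Kif23 and Kif11, motor proteins of the spindle, had the same order. The median level of the list was high in wild-type replicate 1 (8.03) and null replicate 2 (7.79) and lower in wild-type replicate 2 (7.19), null replicate 1 (6.81) and null replicate 3 (6.91). Among these 5 arrays the 3 with high Xist had the lower mitotic levels. The heterozygous arrays had Xist at 11.16 and 12.92 and Y-linked means of 7.71 and 3.13. Their list medians, 9.45 and 8.34, were the highest of all 7 arrays. The part of Xist-linked differences in the result was not tested. The median difference ran from -0.84 to -0.11 under the alternatives. Of 25 replication genes, 2 were higher and 0 lower without overlap, among them Fen1, the flap endonuclease (0.33), with a median of -0.12. For Fen1 the dimmer probe set had the other sign (-0.15).

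Hypoxia and glycolysis genes leaned higher, with 4 of 20 higher and 0 lower without overlap and a median of 0.21. Pdk1 led this list, and Vegfa stood at 8.63 and 8.24 in wild type and at 8.68, 10.09 and 8.70 in null, so in this probe set null replicate 2 stood apart. Its dimmer probe set was higher in every null array, at 6.43, 6.82 and 6.41 against 5.65 and 5.77 (0.85). Adm, the vasodilator adrenomedullin, overlapped (7.67 and 7.04 against 7.10, 8.80 and 8.65).

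Adhesion and guidance genes contained more members on the lower side. Of 24 synaptic adhesion and cadherin genes, 0 were higher and 7 lower without overlap, with a median of -0.05, and Tenm1 had the largest difference among them. Of 22 axon guidance genes, 2 were higher and 4 lower without overlap. The secreted guidance cue Sema3a stood at 4.75 and 5.15 in wild type and at 5.56, 5.41 and 5.68 in null (0.60 ± 0.15, SE). The membrane-bound Sema5a stood at 9.20 and 8.92 in wild type and at 8.46, 8.23 and 8.56 in null (-0.64 ± 0.14, SE), the other side of a pair of semaphorins without overlap.

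The neighbours of Ptprd on chromosome 4 had mostly small differences, with more members lower than higher without overlap. Among the 25 tested genes on each side of Ptprd in RefSeq's order, 2 of 50 were higher and 8 lower without overlap, and the median was -0.06. The next tested gene on one side, Mpdz, a scaffold of tight junctions, stood at 9.35 and 9.17 in wild type and at 8.97, 8.97 and 8.68 in null (-0.39). Kdm4c, a histone demethylase on the other side, differed by -0.23, and Dennd4c, an exchange factor for Rab10, by -0.23. Cdkn2b, the cell cycle inhibitor beside the p16 gene, was higher without overlap (0.55), with null replicate 2 highest at 10.13. Over the 555 tested genes of chromosome 4, 8.65% were higher and 10.8% lower without overlap. The median of the neighbours was negative under all 18 alternatives, from -0.097 to -0.0002. Whether the neighbours differ from the rest of the chromosome was not tested.

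Choroid plexus and ependyma genes had the largest median of the lists, 0.72 over 7 tested members, and this rested mainly on null replicate 1. The mean of the 9 genes on the array was 5.53 and 6.11 in wild type and 7.23, 5.97 and 6.06 in null. Outside the list, Ecrg4, a secreted protein of choroid plexus, stood at 9.66 in null replicate 1 against 7.30 and 6.99 in the other null arrays and 5.69 and 7.61 in wild type. Kcne2, a potassium channel subunit, stood at 7.35 in that array against 4.72 and 4.91, with 3.72 and 5.43 in wild type. Kl, the klotho gene and a member of the list, stood at 6.89 in null replicate 1 against 5.02 and 5.39, with 4.19 and 5.19 in wild type. Foxj1 was the one tested member without overlap. The list's median ranged from 0.19 to 1.07 under the alternatives, and the part of such cells in any other difference of null replicate 1 was not tested.

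**Figure D5:**
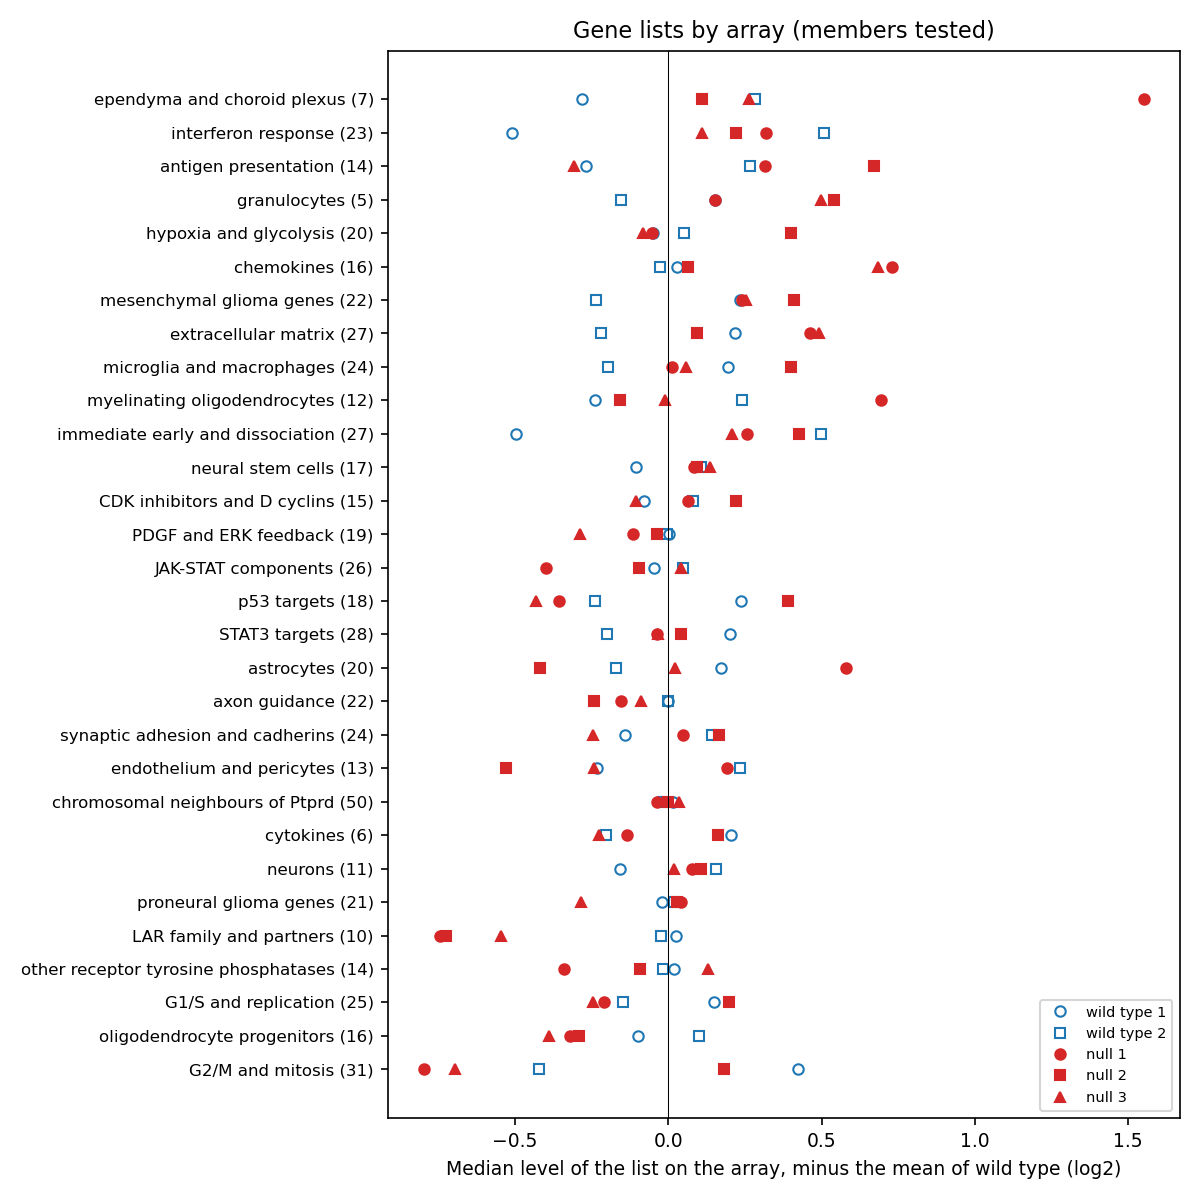
Median level of each list of at least 5 tested members, the sex-linked list left out, on each array, minus the mean of the 2 wild-type arrays (log2, horizontal axis), with the number of members tested in brackets; open blue symbols are wild type and filled red symbols null. Null and wild-type symbols interleave for most lists, and the point farthest from the others is null replicate 1 in ependyma and choroid plexus genes.

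Lists of the other cell types and states gave few members without overlap. These were 0 of 12 for myelinating oligodendrocytes, 1 higher and 1 lower of 20 for astrocytes, 1 and 1 of 11 for neurons, 1 and 1 of 13 for endothelium and pericytes, and 1 and 1 of 4 for T, B and NK cells. They were 0 of 1 for red blood cells, 0 higher and 1 lower of 18 for p53 targets, 1 and 1 of 15 for CDK inhibitors and D cyclins, and 3 and 1 of 27 for immediate early and dissociation genes. Of 8 tested sex-linked genes 0 were without overlap. Of 5 granulocyte genes, 2 were higher without overlap. Camp, among these 2, passed the filter on dim genes only through null replicates 2 and 3. Elane, the other, passed it only through null replicate 1 and heterozygous replicate 1. S100a8, a calprotectin subunit of that list, stood at 4.10 and 3.99 in wild type and at 3.82, 5.76 and 5.82 in null. Without null replicate 1 it was the one gene called by limma, at 1.75 (adjusted p 0.0348, against 0.698 to 1.00 under the other alternatives). S100a8 passed the filter on dim genes only through null replicates 2 and 3, the null arrays left in that fit. The call is therefore not independent of the filter. S100a9, its partner, stood at 4.59 and 4.28 in wild type and at 4.59, 4.97 and 6.30 in null. It passed the filter through the same 2 null arrays.

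The third single call had a very small spread. Zfp2, a zinc finger gene, stood at 7.87 and 7.88 in wild type and at 7.60 in all 3 null arrays, a difference of -0.28 ± 0.09 (SE). A model without limma's moderation of the spread called it (adjusted p 0.0219), and the adjusted p under the other alternatives was 0.608 to 1.00. The pooled SD of its 5 arrays was 0.0058.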

How the data were processed

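Sorted tumour cells were measured on 7 Affymetrix arrays (2 wild-type, 2 heterozygous, 3 null). The deposited values are log2 expression levels, and RMA and Partek 6.6 are named per the submitters' processing notes; genome build and scanner settings are not given in the sources used here. Per the labels' protocols, 75 ng of RNA was labelled with a 3' IVT kit, so probe sets measure mainly the end of each transcript. Of 22690 probe sets, 64 were controls, 20380 named 1 gene, 691 several and 1555 none. Symbols were compared with RefSeq GRCm38.p6, and 29 did not match. Each gene was represented by its probe set of highest mean over the 7 arrays and tested if above the 30th percentile on at least 2 arrays. limma 3.58.1 (R 4.3.3) estimated a mean for each genotype from the 7 arrays together, which left 4 residual degrees of freedom. Tests were two-sided with Benjamini-Hochberg adjustment over all genes tested and a threshold of 0.05. The fit was tested on simulated data. The number of arrays limits the precision.

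Members, rules and lists were chosen with earlier results of these data known, and the mesenchymal, proneural, STAT3 and chemokine lists among them are not independent evidence. The genes named are Ptprd, the 12 largest positive and 12 largest negative differences among genes without overlap and an unadjusted p under 0.05, the 8 smallest p, up to 3 members of smallest p per list, the 8 largest within-group SDs and 3 neighbours on each side of Ptprd, not all of which are described. S100a9, Dcn, Ecrg4, Kcne2, Gjb2, Ifitm3, Irf1, H2-Aa, Pdgfra, Socs3, Timp1, Cd44, Osmr, Ccl12, Ntrk3, Ptprf, Ptprs, Vegfa, Adm, Ttr, Itga6, Hat1, Wipf1, Pnpt1, Zfp2 and genes named by probe set alone were named after values were seen. Alternatives covered the arrays fitted, the features, filter, probe set rule, centring, moderation, covariates, a replicate block and leaving out each array.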

Additional observations from a re-analysis of the deposited data

How the results depend on the processing

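With 2 against 3 arrays the data bound most differences within 2-fold, and smaller ones were not resolved. The number of genes called by limma was 0, and 1 with probe sets averaged per gene, without moderation and without null replicate 1. Leaving out an array gave 0 to 1 calls. Genes with an unadjusted p under 0.05 numbered 889 over every single-gene probe set above the filter, where more features were tested, and 297 to 749 when an array was left out, lowest without wild-type replicate 2 and highest without null replicate 2; wild-type replicate 1 left out gave 310. Genes higher without overlap numbered 1538 with no filter and 988 to 2304 with an array left out, and genes lower without overlap 1947 over every probe set above the filter and 1019 to 2140 with an array left out. Fewer arrays make overlap rarer by construction: the higher and lower counts were 1929 and 2072 without wild-type replicate 1, 2304 and 2140 without wild-type replicate 2, 1706 and 1395 without null replicate 1, 1826 and 1992 without null replicate 2, and 1326 and 1571 without null replicate 3. Intervals within 2-fold were found for 14170 probe sets above the filter. Ptprd stayed between -1.59 and -1.10 in all alternatives, with array left out or not, and its adjusted p between 0.608 and 1.00.

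Same-numbered replicates of different groups are not said to be paired, so the numbers were not taken as pairs. Their deviations from the group means correlated at -0.18 (wild type and null, number 1) and -0.41 (number 2). The deviations of the 2 wild-type arrays mirror each other, and wild-type replicate 1 with null replicate 2 gave 0.41. These correlations therefore cannot decide the pairing. Pairs with heterozygous arrays gave 0.11 (wild type, number 1), 0.02 (null, number 1) and -0.19 (null, number 2). With the replicate block 308 genes had an unadjusted p under 0.05, 0 were called, and Ptprd was -1.59.

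Of 1620 values over 92 named genes, 31 in 13 genes had the other sign. With probe sets averaged per gene, Pnpt1 was 1.25, Cd44 -0.0028, Ptprs -0.018 and Itga6 0.0016. Galc was -0.32 and Ptpn20 -0.14 with the 3' minus 5' covariate. With the replicate block Galc was -0.37, Ptpn20 -0.52 and Xist -0.22. With 1 array left out, Galc ran from -1.64 to 2.46, Ptpn20 from -1.18 to 1.75, Clca3a1 from -2.50 to 1.29, Xist from -2.74 to 4.76, Eif2s3y from -2.95 to 4.49, Socs3 from -0.16 to 0.29, Cd44 from -1.20 to 1.22, Osmr from -0.99 to 0.32, Ttr from -0.096 to 1.09, Ptprf from -0.12 to 0.0071, Ptprs from -0.089 to 0.11 and Itga6 from -0.25 to 0.0092. The cause was not tested.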

Other observations

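The genes named for the largest spread within the groups overlapped between them, also where the difference of the means was over 2-fold, as for Gdpd3 and Xist. Galc, the lysosomal galactosylceramidase, stood at 8.78 and 4.68 in wild type and at 8.08, 4.63 and 8.70 in null, while its other probe sets differed by -0.12 and 0.09. Ptpn20, a tyrosine phosphatase, was split in a like way, at 7.42 and 4.49 in wild type and at 6.12, 4.76 and 7.84 in null. Both were low in wild-type replicate 2 and null replicate 2, one array of each genotype. Gdpd3, a lysophospholipase, stood at 5.29 and 8.83 in wild type and at 7.01, 9.43 and 10.08 in null, and at 4.87 and 5.29 in the heterozygous arrays. Clca3a1, of the calcium-activated chloride channel regulators, stood at 6.99 and 3.20 in wild type and at 3.56, 5.40 and 4.50 in null. The Y-linked translation factor gene Eif2s3y stood at 10.05, 8.69 and 9.80 in wild-type replicate 1 and null replicates 1 and 2, and at 2.61 and 2.81 in the other two.

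Some genes differed over 2-fold without overlap only in a probe set that does not represent them. Uchl5, a deubiquitinase of the proteasome, stood at 6.47 and 6.54 in wild type and at 4.61, 5.58 and 4.52 in null, and at 4.14 and 4.03 in the heterozygous arrays. Atrx, a chromatin remodeller, stood at 5.78 and 5.38 in wild type and at 4.61, 4.71 and 4.40 in null. Usp9x, another deubiquitinase, stood at 6.30 and 5.67 against 4.85, 4.94 and 4.99. The chemokine gene Cxcl13 stood at 4.03 and 4.0 in wild type and at 4.35, 4.60 and 6.84 in null. Pi4k2a, a lipid kinase, stood at 5.04 and 6.61 against 7.27, 7.29 and 6.73. They were named after their values were seen.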
